A study of Homo sapiens with 12 samples.

Results

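The ERBB receptors and their ligands were examined in lines made from CWR22Rv1, an established line of human prostate carcinoma cells from a xenograft that had relapsed after castration. The set held 10 genes chosen by name, namely the 4 receptors EGFR, ERBB2, ERBB3 and ERBB4 and the 6 ligands EGF, AREG, EREG, HBEGF, TGFA and NRG1, because decorin, a secreted proteoglycan central to the study, is a known inhibitor of EGFR. Of these, 6 were listed among the 13951 genes analysed: all 4 receptors, and the ligands HBEGF and TGFA. EGF, AREG, EREG and NRG1 were not analysed here. The tables hold genes that passed the authors' filter on low counts, so the members listed are those with enough reads in at least 1 group.

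ERBB receptors are receptor tyrosine kinases that pair on the cell surface when a ligand binds, and the pairs signal through adaptor proteins to the RAS-ERK and PI3K-AKT pathways. EGFR is the receptor of HBEGF and TGFA, ERBB2 has no known ligand of its own and serves as the preferred partner of the others, ERBB3 has a weak kinase and recruits PI3K strongly, and ERBB4 responds to neuregulins and to some EGF-like ligands. The ligands are made as membrane-bound precursors and released by ADAM proteases. In prostate epithelium, the family is best known for supporting survival and for its interplay with the androgen receptor.

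The 12 libraries fell into 4 groups of 3 replicates by their labels. Control cells expressed Cas9 without a guide RNA. LV-MEIS1 cells expressed exogenous MEIS1, a homeodomain transcription factor, from a lentiviral pReceiver-LV105 vector. HOXB13ko cells had been edited with CRISPR at HOXB13, which encodes the main HOX factor of prostate epithelium, and HOXB13ko-LV-MEIS1 cells carried both changes. All lines were grown in RPMI with 10% serum and puromycin and harvested 48 h after seeding. By the study's methods the edited line was a pool of clones, and each group is 1 derived line or pool. Nothing in the labels says how the replicates of a group were separated, so p-values measure the spread between these samples, which may be technical, and a difference between groups cannot be told apart from a difference between the lines. No androgen, ligand or receptor inhibitor was varied.

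HOXB13 mRNA did not fall in the lines labelled HOXB13ko. It was 185, 215 and 187 CPM (abundance scaled to a library's total reads) in Control, 152, 150 and 151 CPM in LV-MEIS1, 347, 326 and 307 CPM in the libraries labelled HOXB13ko, and 326, 361 and 375 CPM where the label added LV-MEIS1. An mRNA level does not show whether a small edit disrupts the protein, which is not measured here. By the study's methods, loss of HOXB13 protein was checked by western blot in the edited cells and in each clone of the pool. All directions below are given by label. MEIS1 averaged 4.25 CPM in Control and 3.56 CPM in HOXB13ko against 47.4 CPM in LV-MEIS1 and 29.7 CPM in HOXB13ko-LV-MEIS1. MEIS1 mRNA was thus not at the same level in the 2 lines that carried the vector. Estimated depth was between 17200000 and 28700000 reads per library, at which 3 reads correspond to between 0.105 and 0.175 CPM. All 8 luminal prostate markers examined were listed, with a sum between 3349 and 3460 CPM in Control, 2472 and 2509 in LV-MEIS1, 3622 and 3640 in HOXB13ko, and 3614 and 3737 in HOXB13ko-LV-MEIS1. Among them, treat called KLK2 (log2 fold change -1.40), a prostate gene regulated by androgen, lower in LV-MEIS1 than in Control. Of 5 neuroendocrine markers 3 were listed, CHGB, SYP and ENO2, with a sum between 206 and 219 CPM in Control and between 162 and 183 CPM in the other groups. Of 5 stroma markers 3 were listed, without COL1A2 and FAP, with a sum between 33.3 and 44.4 CPM over all libraries. Within these lists treat called CHGB (-3.14), SYP (-2.91) and VIM (-1.64) lower and COL1A1 (1.15) higher in LV-MEIS1 than in Control. It also called CHGB (-2.14) and SYP (-1.91) lower in HOXB13ko than in Control, but not VIM (-0.97) or COL1A1 (0.34). Of the basal, endothelial and leukocyte markers, 0 of 4, 0 of 3 and 0 of 3 were listed. The part of these differences in the results below was not tested. Levels are per amount of RNA, so fewer cells with a transcript and less of it per cell cannot be told apart.

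EGFR (ENSG00000146648, GRCh38 chromosome 7, 55019017 to 55211628, plus strand) was lowest in LV-MEIS1 and highest in the lines labelled HOXB13ko. It was 56.3, 54.3 and 53.5 CPM in Control and 37.9, 46.9 and 45.0 CPM in LV-MEIS1. In HOXB13ko it was 73.7, 83.7 and 87.6 CPM, and in HOXB13ko-LV-MEIS1 73.8, 70.1 and 71.3 CPM. Every LV-MEIS1 library lay below every Control library, and every library labelled HOXB13ko, with or without MEIS1, lay above both groups. The 2 groups labelled HOXB13ko overlapped.

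ERBB2 (ENSG00000141736, chromosome 17, 39687914 to 39730426, plus strand), the shared partner of the family, had the opposite order. It was 57.4, 58.0 and 53.1 CPM in Control and 111, 113 and 116 CPM in LV-MEIS1. In HOXB13ko it was 43.9, 40.7 and 37.3 CPM, and in HOXB13ko-LV-MEIS1 38.0, 42.2 and 44.2 CPM. All LV-MEIS1 libraries were at or above 111 CPM where the highest other library had 58.0 CPM, and the 2 groups labelled HOXB13ko overlapped each other below both. On the plot of CPM by library, ERBB2 in LV-MEIS1 stands apart from every other library.

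ERBB3 (ENSG00000065361, chromosome 12, 56076799 to 56103505, plus strand), the receptor with the highest CPM, varied least between groups. It was 184, 183 and 185 CPM in Control, 163, 168 and 159 CPM in LV-MEIS1, 185, 190 and 195 CPM in HOXB13ko, and 190, 204 and 197 CPM in HOXB13ko-LV-MEIS1. The 3 LV-MEIS1 libraries were the lowest of the 12. ERBB4 (ENSG00000178568, chromosome 2, 211375717 to 212538841, minus strand) was 11.98, 11.5 and 11.7 CPM in Control, 12.1, 14.95 and 13.5 CPM in LV-MEIS1, 12.7, 17.2 and 15.7 CPM in HOXB13ko, and 11.99, 11.6 and 10.9 CPM in HOXB13ko-LV-MEIS1. Its replicates in LV-MEIS1 and HOXB13ko spread widely, and the groups with the lowest means, Control and HOXB13ko-LV-MEIS1, overlapped.

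HBEGF (ENSG00000113070, chromosome 5, 140332843 to 140346603, minus strand), a ligand of EGFR and ERBB4 that also binds heparan sulphate, was scarce. It was 2.85, 2.55 and 3.05 CPM in Control, 0.664, 1.73 and 1.11 CPM in LV-MEIS1, 2.10, 1.81 and 2.78 CPM in HOXB13ko, and 2.66, 2.01 and 3.07 CPM in HOXB13ko-LV-MEIS1. TGFA (ENSG00000163235, chromosome 2, 70447284 to 70554193, minus strand), a ligand of EGFR, was 3.95, 3.16 and 3.82 CPM in Control, 1.60, 1.27 and 1.30 CPM in LV-MEIS1, 3.43, 2.83 and 2.57 CPM in HOXB13ko, and 3.15, 2.49 and 3.99 CPM in HOXB13ko-LV-MEIS1. For both ligands, all 3 LV-MEIS1 libraries lay below the other 9. All of these values were above the level of 3 reads.

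**Figure D1:**
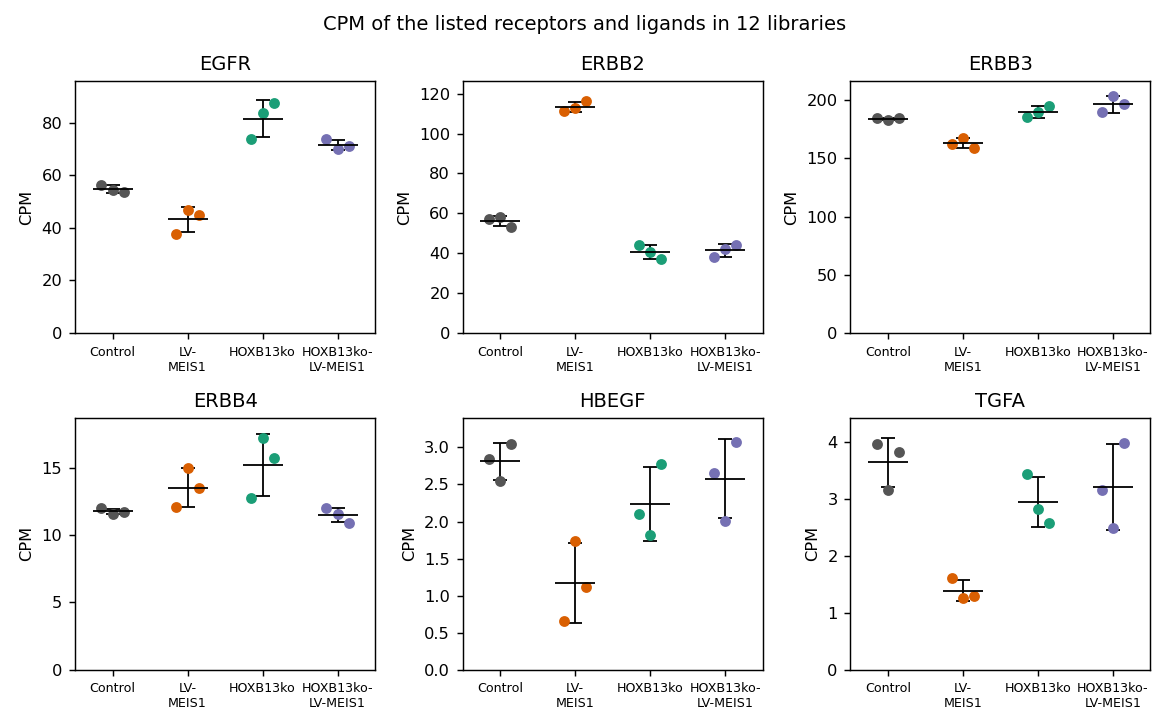
CPM of the 4 receptors and 2 ligands in each library, with 1 panel per gene, points for libraries, horizontal lines for group means and bars for the SD (n = 3). ERBB2 is highest in the LV-MEIS1 libraries, while EGFR, ERBB3, HBEGF and TGFA are lowest there, and the 2 groups labelled HOXB13ko lie close together for most genes.

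Levels of different genes were compared per length, as CPM per kb of the union of annotated exons. In Control, ERBB3 averaged 15.7 ± 0.0571 CPM per kb (SD, n = 3), ERBB2 5.44 ± 0.257, EGFR 3.43 ± 0.0913, HBEGF 0.942 ± 0.0834, ERBB4 0.903 ± 0.0168 and TGFA 0.741 ± 0.0868. ERBB3 ranked first in all 4 groups. The order of the next receptors was not the same throughout, since ERBB2 was second in Control and in LV-MEIS1 (10.99 ± 0.256 CPM per kb, against 2.71 ± 0.300 for EGFR), whereas EGFR was second in HOXB13ko (5.12 ± 0.449, against 3.94 ± 0.323 for ERBB2) and in HOXB13ko-LV-MEIS1 (4.50 ± 0.119, against 4.02 ± 0.311). The ranges of ERBB2 and EGFR did not overlap in any group. HBEGF and ERBB4 overlapped in Control. With coding length in place of exon union, ERBB2 and EGFR could not be ordered in Control (14.9 ± 0.705 and 15.1 ± 0.401 CPM per kb), and TGFA (7.31 ± 0.857) ranked above HBEGF and ERBB4.

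The ratio of ERBB2 to EGFR, both in CPM within 1 library, needs no such length and separated the lines. It was 1.02, 1.07 and 0.993 in Control, 2.94, 2.40 and 2.59 in LV-MEIS1, 0.596, 0.486 and 0.425 in HOXB13ko, and 0.514, 0.603 and 0.620 in HOXB13ko-LV-MEIS1. The LV-MEIS1 libraries lay above 2 and all 6 libraries labelled HOXB13ko lay below 1. On the log2 scale the ratio differed by 1.35 between LV-MEIS1 and Control, by -1.03 between HOXB13ko and Control, and by -2.17 between HOXB13ko-LV-MEIS1 and LV-MEIS1 (exact two-sided permutation test, p = 0.1 for each, the smallest value that 3 against 3 libraries allow). Between HOXB13ko-LV-MEIS1 and HOXB13ko it differed by 0.21 (exact permutation p = 0.2) and the groups overlapped.

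**Figure D2:**
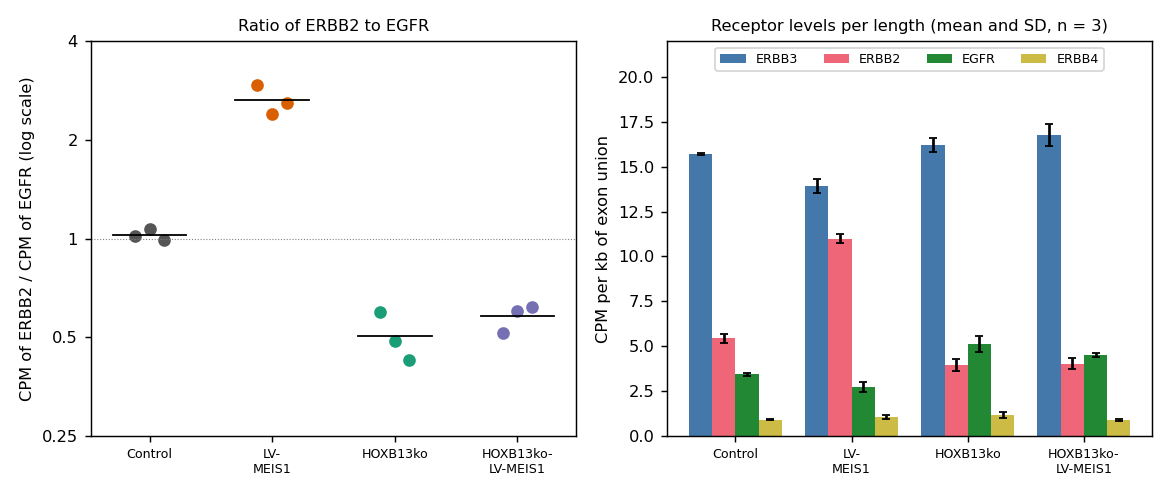
Left, the ratio of ERBB2 CPM to EGFR CPM in each library on a log scale, with points for libraries and lines for group means. Right, mean CPM per kb of exon union of the 4 receptors by group, with bars for the SD (n = 3). The ratio is near 1 in Control, 2.64 on average in LV-MEIS1, and 0.503 and 0.579 in the groups labelled HOXB13ko, and ERBB3 is the highest receptor in every group.

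The first comparison, LV-MEIS1 against Control, asks how exogenous MEIS1 changed the family in cells not labelled HOXB13ko. ERBB2 rose 2.01-fold (log2 fold change 1.01 ± 0.07 SE, adjusted p = 6.4e-04 by limma treat against a 1.5-fold change, Benjamini-Hochberg over all genes). It was the 1 member of 6 called by that test, which called 3.99% of all genes, and it ranked 270th of 13951 genes by log2 fold change. Against no change, limma's eBayes test called 44.5% of all genes and 5 of the 6 members. ERBB2 rose, and EGFR fell (log2 fold change -0.34 ± 0.08, adjusted p = 0.00273), as did ERBB3 (-0.17 ± 0.04, adjusted p = 0.00549), HBEGF (-1.04 ± 0.22, adjusted p = 0.00164) and TGFA (-1.13 ± 0.17, adjusted p = 8.2e-05). These values are for mRNA. By western blot, the paper reports more total EGFR protein and less phosphorylated EGFR in LV-MEIS1 than in control cells, both given a control siRNA. It reports that knockdown of decorin in LV-MEIS1 cells restored EGFR activation at least in part. From a gene set analysis of its RNA-seq, the paper also proposes lower EGFR pathway activity in LV-MEIS1. The estimates for both ligands were larger than a 1.5-fold fall, but neither passed the 1.5-fold test (adjusted p = 0.494 for HBEGF and 0.0628 for TGFA). TGFA passed it with a pseudocount of 0.1 (-1.33, adjusted p = 0.0221) and without HOXB13ko-LV-MEIS1 replicate 2 or 3 (adjusted p = 0.043 and 0.0426), which enter the fit only through the spread. ERBB4 had a log2 fold change of 0.19 ± 0.11 and passed neither test. The 2 groups did not overlap for 6 of 6 members, and did not overlap for 51.3% of all genes.

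The second comparison, HOXB13ko against Control, asks how the lines differ without exogenous MEIS1. EGFR and ERBB2 moved in opposite directions, with a log2 fold change of 0.57 ± 0.08 for EGFR (95% confidence interval 0.40 to 0.74, eBayes adjusted p = 9.7e-05) and of -0.46 ± 0.07 for ERBB2 (-0.61 to -0.32, adjusted p = 2.2e-04). Neither passed the 1.5-fold test, which called 0 of the 6 members and 1.41% of all genes. An unadjusted treat p under 0.05 was found for 0 of 6, beside 378 of 13951 genes. ERBB4 passed the test against no change (0.35 ± 0.11, eBayes adjusted p = 0.023), but not without Control replicate 2 or 3 or HOXB13ko replicate 2 or 3, where its adjusted p reached 0.112. ERBB3 (0.04 ± 0.04), HBEGF (-0.29 ± 0.22) and TGFA (-0.27 ± 0.17) did not pass, and the intervals of the ligands ran from -0.76 to 0.18 and from -0.63 to 0.09. The test against no change called 3 of 6 members and 32.9% of all genes, and 4 of 6 members did not overlap between groups, as did 44.9% of all genes.

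The third comparison, HOXB13ko-LV-MEIS1 against HOXB13ko, asks what exogenous MEIS1 changed in the line labelled HOXB13ko. No member was called by limma treat or by eBayes (0 of 6 by each, against 0.00717% and 0.0502% of all genes), and the only gene treat called in this comparison was MEIS1 itself. At an unadjusted p under 0.05, treat had 0 of 6 members, beside 9 of 13951 genes. At that cutoff eBayes had 2 of 6, EGFR and ERBB4. Its share over all genes was not counted, so this count is not read as a result. For ERBB2 the log2 fold change was 0.03 ± 0.07, with a 95% confidence interval from -0.12 to 0.18, which leaves out the rise of 1.01 seen in LV-MEIS1. EGFR was at -0.18 ± 0.08 (interval -0.35 to -0.02, eBayes adjusted p = 0.299), ERBB3 at 0.05 ± 0.04 and ERBB4 at -0.38 ± 0.11 (interval -0.61 to -0.15, eBayes adjusted p = 0.158). ERBB4 was the 1 member whose groups did not overlap, where 21.1% of all genes did not. HBEGF was at 0.17 ± 0.22 (interval -0.30 to 0.64) and TGFA at 0.10 ± 0.17 (interval -0.26 to 0.45), intervals that leave out the estimates of the first comparison for these ligands.

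The next comparison sets HOXB13ko-LV-MEIS1 against LV-MEIS1, the 2 lines that carried exogenous MEIS1. ERBB2 was 2.72-fold lower (log2 fold change -1.44 ± 0.07, treat adjusted p = 2.4e-07) and was the 1 member of 6 called, where treat called 6.71% of all genes. Against no change, EGFR (0.73 ± 0.08, eBayes adjusted p = 2.6e-06), ERBB3 (0.27 ± 0.04, adjusted p = 1.6e-04), HBEGF (0.92 ± 0.22, adjusted p = 0.00313) and TGFA (0.96 ± 0.17, adjusted p = 2.6e-04) were higher, so that 5 of 6 members passed beside 50.1% of all genes. ERBB4 had a log2 fold change of -0.22 ± 0.11 and did not pass. The groups did not overlap for 6 of 6 members and for 58.3% of all genes. This comparison shares the LV-MEIS1 libraries with the first and the HOXB13ko-LV-MEIS1 libraries with the third. MEIS1 mRNA itself was lower here (log2 fold change -0.66 ± 0.07), and the part of that difference in these values was not tested.

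The last comparison tests the difference of the MEIS1 effects, the effect in cells not labelled HOXB13ko minus the effect in the line so labelled. ERBB2 had a difference of 0.98 ± 0.10 on the log2 scale (interval 0.77 to 1.19), called by limma treat with an adjusted p of 0.0268, where treat called 2.93% of all genes. That call was lost with the replicate number as a block (adjusted p = 0.0625), at an adjusted p under 0.01, and without any 1 of 6 libraries (Control replicate 3, LV-MEIS1 replicate 2 or 3, HOXB13ko replicate 1 or 2, or HOXB13ko-LV-MEIS1 replicate 1). Leaving out each of the 12 libraries in turn gave differences between 0.92 and 1.04 and adjusted p between 0.0106 and 0.0817. Against no change the ERBB2 difference passed in every one of these fits (eBayes adjusted p = 5.0e-06 with all libraries). The eBayes test called 5 of 6 members and 34.2% of all genes. TGFA (-1.23 ± 0.24, adjusted p = 0.00135), HBEGF (-1.21 ± 0.31, adjusted p = 0.0089) and ERBB3 (-0.22 ± 0.06, adjusted p = 0.0139) had negative differences, and ERBB4 had a positive one (0.57 ± 0.15, adjusted p = 0.0108). For EGFR the difference was -0.16 ± 0.11 (interval -0.40 to 0.08, eBayes adjusted p = 0.283), so a difference between its MEIS1 effects in the 2 lines was not shown. MEIS1 mRNA itself had a difference of 0.44 ± 0.11 (eBayes adjusted p = 0.00627), and its part in these values was not tested.

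**Figure D3:**
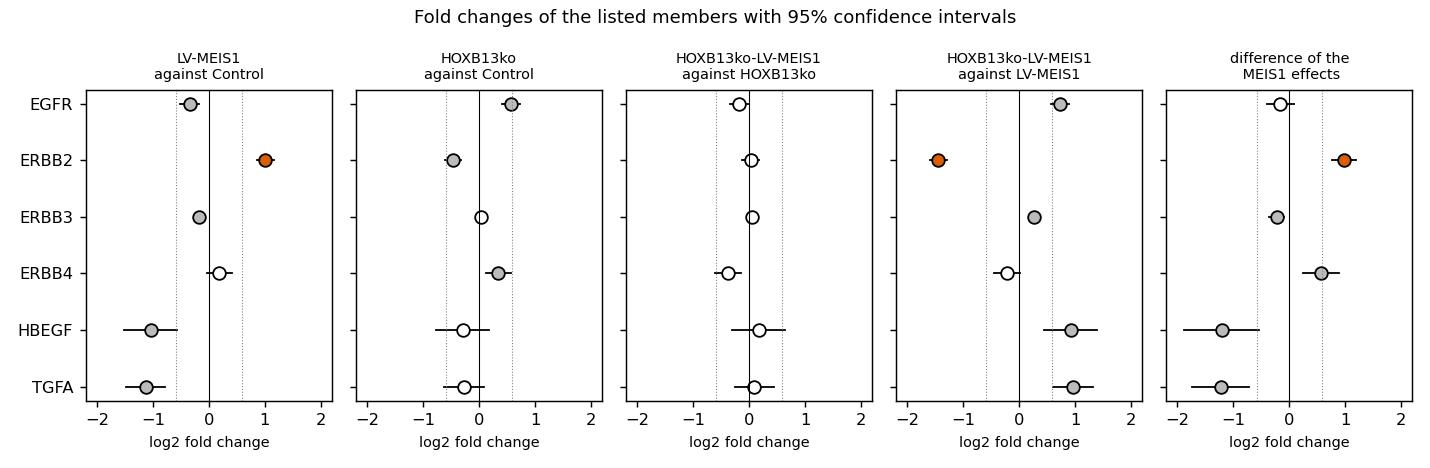
Log2 fold changes of the 6 listed members in 5 comparisons, with lines for 95% confidence intervals. Orange points passed limma treat against a 1.5-fold change, grey points passed only the eBayes test against no change, open points passed neither, and dotted lines mark a 1.5-fold change. ERBB2 is the only member with an orange point, and in HOXB13ko-LV-MEIS1 against HOXB13ko every point is open.

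Genes next to ERBB2 and EGFR were examined to see whether they differed between the lines in the same direction. Within 500 kb of the ERBB2 start, 21 other protein-coding genes were listed, with a median log2 fold change of 0.06 between LV-MEIS1 and Control, where the median of all genes was 0.01. None of them passed limma treat there, and 1 had an unadjusted treat p under 0.05, beside 906 of 13951 genes. In the same comparison eBayes called 5 higher and 2 lower, 33.3% of the 21 beside 44.5% of all genes. IKZF3, a lymphoid transcription factor gene starting 176 kb downstream, had the largest value (1.03 ± 0.13, treat adjusted p = 0.0529, eBayes adjusted p = 2.2e-05). GRB7, an adaptor that binds ERBB2, starts 50.0 kb downstream and was at 0.57 ± 0.09 (eBayes adjusted p = 1.1e-04). PGAP3 (0.10 ± 0.10) and MIEN1 (-0.22 ± 0.09), which overlap exons of ERBB2 on the other strand, did not pass either test, and strand was not used when reads were assigned. Between HOXB13ko-LV-MEIS1 and LV-MEIS1, treat called IKZF3 lower (-1.64) and PPP1R1B, which encodes a phosphatase inhibitor, higher (1.77). That is 9.52% of the 21 genes, beside 6.71% of all genes, and the median of the 21 was -0.10. Treat also called PPP1R1B higher in HOXB13ko than in Control (1.56, adjusted p = 2.9e-05), 4.76% of the 21 beside 1.41% of all genes. In the difference of the MEIS1 effects treat called IKZF3 (1.25, adjusted p = 0.0476), 4.76% of the 21 beside 2.93% of all genes. Over the 125 genes within 5 Mb of ERBB2 that averaged 5 CPM or more, their median was -0.04 when LV-MEIS1 was set against Control and -0.06 between the 2 lines with exogenous MEIS1. Around EGFR, the median of 15 such genes was -0.01 for LV-MEIS1 set against Control, 0.07 for HOXB13ko set against Control and 0.15 between the 2 lines with exogenous MEIS1.

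**Figure D4:**
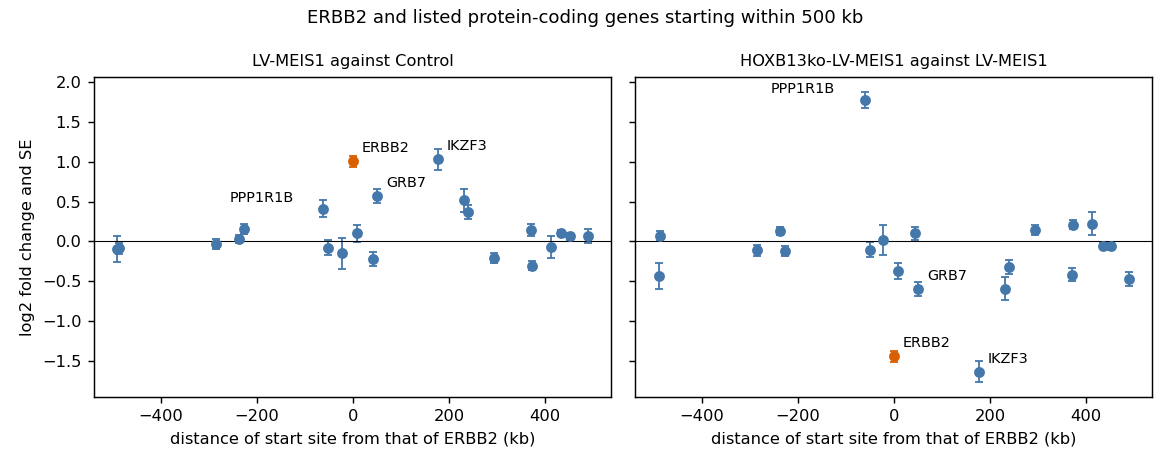
Log2 fold change with its SE for ERBB2 (orange) and the 21 listed protein-coding genes that start within 500 kb (blue), against the distance of their start from that of ERBB2 in kb. IKZF3 and GRB7 lie on the same side of 0 as ERBB2 in both comparisons, and PPP1R1B is at 1.77 in the comparison of the 2 lines with exogenous MEIS1.

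The sequence before the start site was searched for the core motif of MEIS factors, TGACAG, and for CAATAAA, a core of motifs bound by HOXB13, on both strands. In the 250 bases upstream of the MANE Select start (GENCODE annotation of GRCh38), 10.0% of 12489 listed genes held TGACAG or its complement and 1.70% held CAATAAA or its complement. Neither motif contains the other. Among the 6 listed members the windows held 0 matches to TGACAG, and CAATAAA matched once, in the window of ERBB4. The windows of EGFR and HBEGF are shown because both genes were lower in LV-MEIS1 and their windows hold no annotated exon. They are the plus strand of chr7:55018767-55019016 for EGFR and the minus strand of chr5:140346604-140346853 for HBEGF, 5′ to 3′ in the direction of the gene, and no letters are capitalised because neither holds a match.
EGFR: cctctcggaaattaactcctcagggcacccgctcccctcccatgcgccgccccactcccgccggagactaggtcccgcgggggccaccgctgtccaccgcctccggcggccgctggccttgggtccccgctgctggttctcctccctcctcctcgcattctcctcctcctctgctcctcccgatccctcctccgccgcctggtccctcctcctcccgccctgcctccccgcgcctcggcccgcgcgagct
HBEGF: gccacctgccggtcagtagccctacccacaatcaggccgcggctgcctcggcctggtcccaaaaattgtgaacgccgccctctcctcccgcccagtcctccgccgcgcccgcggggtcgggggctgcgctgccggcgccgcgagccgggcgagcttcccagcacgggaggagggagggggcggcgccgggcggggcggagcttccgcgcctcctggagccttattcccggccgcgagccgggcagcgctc
The absence of these letters from 250 bases says nothing about binding elsewhere. Both windows are rich in G and C, with 73.6% for EGFR and 76.4% for HBEGF.

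The genes whose log2 levels followed each main receptor most closely over the 12 libraries were taken from those averaging 5 CPM or more and with group means at least 0.58 apart on the log2 scale. For EGFR they were SYTL2 (Pearson r = 0.987), TRERF1 (0.982) and AAK1 (0.981), among 2134 genes. For ERBB2 they were KREMEN1 (0.994), SCRN1 (0.993) and APLP1 (0.992), each averaging more in LV-MEIS1 than in any other group (26.8, 71.5 and 122 CPM). For ERBB3 they were AZGP1 (0.967), FKBP5 (0.966) and MAP4K4 (0.964), among 2135 genes, and FKBP5 is a well-known target of the androgen receptor. Among the members, r was -0.922 between EGFR and ERBB2, -0.936 between ERBB2 and ERBB3, 0.846 between EGFR and ERBB3, and 0.801 between HBEGF and TGFA. The libraries fall into separate groups, so these values describe the order of the groups and are given without a test.

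The remaining genes around the receptors were taken from lists by function. Of 5 further ERBB ligands, betacellulin (BTC), a ligand of EGFR and ERBB4, was the 1 listed. It was 3.20, 3.20 and 2.39 CPM in Control and 3.87, 5.06 and 3.92 CPM in LV-MEIS1, with a log2 fold change of 0.48 ± 0.15 (eBayes adjusted p = 0.0172), and is named after its values were seen. It thus rose against no change where HBEGF and TGFA fell. Of 8 sheddases and cofactors that release the ligands, 7 were listed and 0 were called by treat in any comparison. At most 1 had an unadjusted treat p under 0.05, in HOXB13ko-LV-MEIS1 against LV-MEIS1, beside 1348 of 13951 genes. In LV-MEIS1 against Control, eBayes called 3 of them higher and 1 lower, 57.1% of the 7 beside 44.5% of all genes, and their median log2 fold change was 0.08.

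Of 39 adaptors and kinases that act next to the receptors, 37 were listed, and treat called 2 of them (5.41%, beside 3.99% of all genes) in LV-MEIS1 against Control, both higher. SHC2, an adaptor that binds phosphorylated receptors, was 6.28, 8.86 and 8.44 CPM in Control and 17.2, 18.0 and 21.02 CPM in LV-MEIS1 (log2 fold change 1.21 ± 0.17, treat adjusted p = 0.0284), and the groups did not overlap. In total, eBayes called 12 of the 37 higher and 6 lower, a share of 48.6% that lies near the 44.5% of all genes, and their median was 0.09. Between HOXB13ko-LV-MEIS1 and LV-MEIS1, treat called 3 of the 37 (8.11%, beside 6.71% of all genes), all lower, among them SHC2 (-2.23) and the docking protein GAB2 (-1.03).

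Feedback regulators of the pathway were examined next. Of 28 in the list, 27 were listed, and in LV-MEIS1 against Control treat called 2 (7.41%, beside 3.99% of all genes), both higher. SPRY4, an inhibitor of RAS-ERK signalling that the pathway itself induces, was 4.07, 4.50 and 4.86 CPM in Control and 21.5, 19.7 and 23.1 CPM in LV-MEIS1 (log2 fold change 2.14 ± 0.11, treat adjusted p = 1.1e-07). DUSP4, a phosphatase of ERK, was 4.94, 6.53 and 4.97 CPM in Control and 16.2, 14.8 and 15.7 CPM in LV-MEIS1 (1.44 ± 0.11, treat adjusted p = 6.0e-05). In HOXB13ko-LV-MEIS1 SPRY4 averaged 4.93 CPM and DUSP4 6.46 CPM. Against no change, 15 of the 27 were higher and 3 lower, 66.7% beside 44.5% of all genes, with a median of 0.18. ERRFI1 (-0.27 ± 0.08) and LRIG1 (-0.54 ± 0.12) went the other way (eBayes adjusted p = 0.0107 and 0.00279), and are named after their values were seen. SPRY4 and DUSP4 were lower in HOXB13ko-LV-MEIS1 than in LV-MEIS1 (-2.02 and -1.21 by treat), and both were called in the difference of the MEIS1 effects (2.48 ± 0.16 and 1.45 ± 0.16).

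Of 24 early target genes of the ERK pathway, 19 were listed. Treat called the ETS factors ETV1 and ETV5 higher in LV-MEIS1 than in Control, ETV1 from a mean of 14.4 to 31.7 CPM (log2 fold change 1.12 ± 0.08, adjusted p = 1.5e-04) and ETV5 from 9.22 to 19.0 CPM (1.00 ± 0.11, adjusted p = 0.0229). Both were also higher in HOXB13ko than in Control by eBayes (0.84 ± 0.08 and 0.59 ± 0.11). Of the other 17 genes of the list, eBayes called 6 higher and 3 lower in LV-MEIS1 against Control. Over all 19 it called 57.9%, beside 44.5% of all genes, and the median was 0.11. EGR1 was at 0.77 ± 0.08 and MYC at -0.66 ± 0.07 (eBayes adjusted p = 5.0e-06 and 2.7e-06), chosen after their values were seen. With HOXB13ko set against Control, EGR1 was at 0.88 ± 0.08 (eBayes adjusted p = 4.0e-06) and MYC at -0.02 ± 0.07. In HOXB13ko-LV-MEIS1 against HOXB13ko, neither test called any of the 90 genes of the sheddase, adaptor, feedback and early target lists. At an unadjusted p under 0.05 treat had 0 of them, beside 9 of 13951 genes. At that cutoff eBayes had 11 of the 90. Its share over all genes was not counted, so this count is not read as a result. In HOXB13ko against Control treat called 0 of the 90, and 3 had an unadjusted treat p under 0.05, beside 378 of 13951 genes. There eBayes called 28 of the 90 (31.1%), a share near the 32.9% of all genes.

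**Figure D5:**
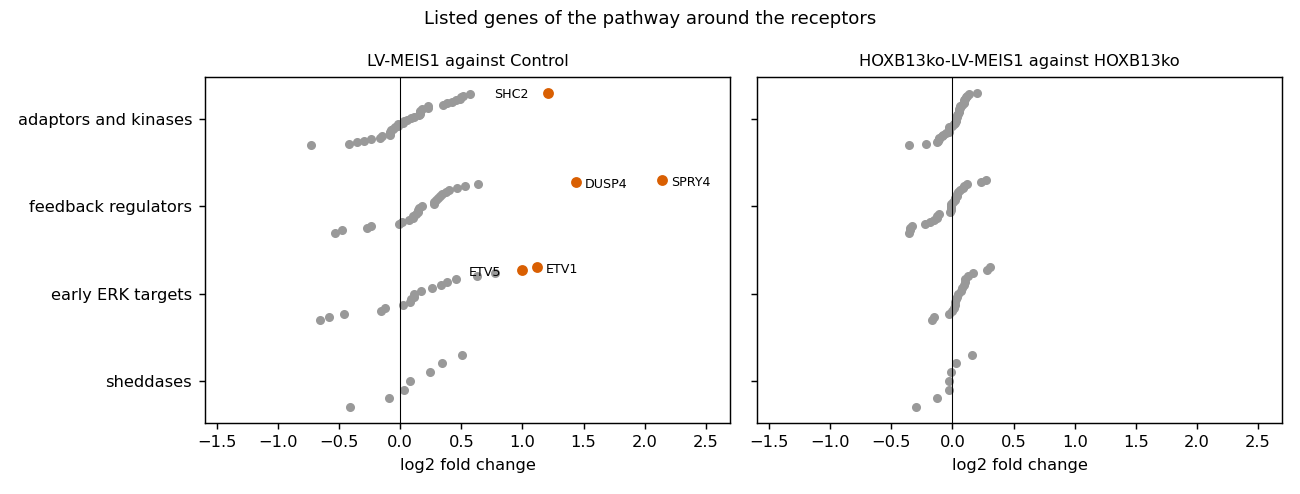
Log2 fold changes of the listed genes of 4 lists, 1 point per gene and with 1 adaptor gene not shown, in LV-MEIS1 against Control (left) and HOXB13ko-LV-MEIS1 against HOXB13ko (right). Orange points with names passed limma treat against a 1.5-fold change. The 5 named genes lie between 1.00 and 2.14 on the left, and no gene is named on the right.

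DCN, which encodes decorin, was, like ERBB2, highest in LV-MEIS1 and lower in the lines labelled HOXB13ko than in Control. It was 2.46, 2.99 and 1.83 CPM in Control and 28.3, 28.2 and 26.5 CPM in LV-MEIS1, against 1.10, 0.947 and 0.899 CPM in HOXB13ko and 0.931, 1.22 and 0.873 CPM in HOXB13ko-LV-MEIS1. Of the 6 genes in the list of decorin and related receptors, 5 were listed, with a median log2 fold change of 0.40 in LV-MEIS1 against Control. There eBayes called all 5, 100% beside 44.5% of all genes. It called 4 higher, among them DCN and the TGF-beta receptor genes TGFBR1 (0.40) and TGFBR2 (0.34), and 1 lower. The lower one, IGF1R, the receptor of insulin-like growth factors, fell from a mean of 41.9 to 18.7 CPM in LV-MEIS1 (log2 fold change -1.14 ± 0.07, treat adjusted p = 7.7e-05). IGF1R lies on chromosome 15 (98648539 to 98964530) in a long stretch of lower genes. Of the 104 other protein-coding genes that averaged 5 CPM or more from RPP25 to the end of that chromosome, 100 had negative log2 fold changes in LV-MEIS1 against Control, with a median of -0.57, and 98 were negative in the difference of the MEIS1 effects. The part of that stretch in the IGF1R value was not tested. No member of the ERBB family lies on chromosome 15.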

How the data were processed

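RNA-seq values for 12 libraries in 4 groups of 3 were taken as the authors deposited them, in CPM. Per the study's methods, the authors cleaned 50 bp reads with Trimmomatic 0.38, quantified GRCh38 transcripts with kallisto 0.43.1 without using strand, summed the estimates to genes, removed genes with few counts and scaled libraries in edgeR 3.22.2. Each table has 13993 rows named by symbol. The 42 exact repeats were left out, and 13951 genes were analysed, with sums between 940564 and 992328 CPM per library. Between 47.9% and 60.9% of low values lay within 0.1 of whole multiples of a library's smallest step, so counts could not be recovered and count models were not used. Depth was estimated from that step.

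Tests used limma 3.58.1 in R 4.3.3 on log2(CPM + 0.5), a scale that understates changes of low genes, with 1 mean per group over 12 libraries, a trended prior and Benjamini-Hochberg adjustment over all genes. Genes were called by treat against a 1.5-fold change at an adjusted p under 0.05, and eBayes tested against no change. The ERBB2 to EGFR ratio was compared by exact permutation in scipy 1.17.1 (Python 3.11.15). Libraries with the same replicate number in different groups did not deviate together (18 pairs, r between -0.207 and 0.145, 2 above 0.1), so the numbers were not taken as pairs. For libraries with different numbers r was between -0.26 and 0.264, and a batch that the numbers do not follow was not tested.

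The genes named are the 10 members, MEIS1, HOXB13 and DCN, at most 3 called genes per list and comparison, 3 genes most like each of EGFR, ERBB2 and ERBB3, and neighbours of called members. Some genes counted in the lists are not reported here by name. Members and lists were chosen with earlier results of these data known. Searches of genes within 5 Mb and on chromosome 15, and the ratio without each library, were added after the data were seen. Positions came from the GENCODE v44 annotation of GRCh38, matched by symbol. Scripts were tested on simulated data, and figures were drawn with matplotlib 3.10.9.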

Additional observations from a re-analysis of the deposited data

Results flagged for a closer look

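The effect of exogenous MEIS1 on ERBB2 differed between the lines in a test of the difference itself, a call against a 1.5-fold change that depends on the settings. The effect in cells not labelled HOXB13ko minus that in the line labelled HOXB13ko was 0.98 on the log2 scale (limma treat, adjusted p = 0.0268), with ERBB2 higher in 3 of 3 LV-MEIS1 libraries than in every Control library and no separation between HOXB13ko-LV-MEIS1 and HOXB13ko. The other members did not pass that test (treat adjusted p = 0.197 for TGFA, 0.59 for HBEGF and 1 for EGFR, ERBB3 and ERBB4). The ERBB2 call was lost with the replicate number as a block (adjusted p = 0.0625), at an adjusted p under 0.01, and without any 1 of 6 libraries, while eBayes against no change passed with all libraries (adjusted p = 5.0e-06) and in each of these fits. MEIS1 mRNA averaged 47.4 CPM in LV-MEIS1 and 29.7 CPM in HOXB13ko-LV-MEIS1, and the part of that gap in the ERBB2 result was not tested. Each group is 1 derived line or pool, so a difference between MEIS1 effects cannot be told apart from a difference between lines.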

How the results depend on the processing

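Over the 30 member fold changes (6 members in 5 comparisons) and 654 alternatives, none reversed a called direction, 628 kept their side of the threshold, 18 passed it newly and 8 lost it. Of the 18, 15 came from limma's eBayes test against no change in place of treat, which asks for less by construction. These were EGFR (-0.34), ERBB3 (-0.17), HBEGF (-1.04) and TGFA (-1.13) in LV-MEIS1 against Control, EGFR (0.57), ERBB2 (-0.465) and ERBB4 (0.35) in HOXB13ko against Control, EGFR (0.73), ERBB3 (0.27), HBEGF (0.92) and TGFA (0.96) in HOXB13ko-LV-MEIS1 against LV-MEIS1, and ERBB3 (-0.22), ERBB4 (0.57), HBEGF (-1.21) and TGFA (-1.23) in the difference of the MEIS1 effects. That test called 6207, 4590, 7, 6993 and 4771 genes in the 5 comparisons, where treat called 557, 197, 1, 936 and 409. TGFA in LV-MEIS1 against Control also passed treat at -1.33 with a pseudocount of 0.1 and, leaving out 1 library, ranged from -1.22 to -1.08. The ERBB2 difference of the MEIS1 effects (0.98) lost its call under the replicate block and at an adjusted p under 0.01, and ranged from 0.92 to 1.04 leaving out 1 library. The causes were not tested. The replicate block changed no other call of a member.

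In HOXB13ko-LV-MEIS1 against HOXB13ko, treat called 2 genes with a pseudocount of 0.1, under the replicate block and with only the 6 libraries compared, and 1 to 2 leaving out 1 library. At an adjusted p under 0.01 the difference of the MEIS1 effects held 272 genes. Levels in Control per kb of coding length were 15.1 for EGFR, 14.9 for ERBB2, 45.7 for ERBB3, 2.99 for ERBB4, 4.51 for HBEGF and 7.31 for TGFA. The other scalings of the libraries moved the median of all genes by less than 0.1 on the log2 scale.
With 3 libraries per group an exact permutation test cannot go below 0.1. HBEGF and TGFA, at or below 4 CPM, had the widest intervals, and the log2(CPM + 0.5) scale understates their folds.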
